A study of Drosophila melanogaster with 6 samples.

Results

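The cytochrome P450 genes outside the Cyp4e and Cyp4g subfamilies were described in heads of Drosophila melanogaster females kept on a high fat or a normal diet. A gene was taken where a probe set of the array carried a single platform symbol of the form Cyp, number, letters, number, and Cyp4e and Cyp4g genes were left out. Where a gene had several such probe sets, the one with the highest mean signal stood for it. This gave 75 genes, measured by 77 probe sets, of 11982 named genes and 18769 non-control probe sets on the array. The genes were taken by name, and the probe set of Cyp12e1 and of Cyp18a1, which had several, by signal.

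The high fat group held 3 samples of mated w1118 females fed for 7 days on standard food with 20% (w/v) coconut oil, and the normal diet group held 3 samples of the same females fed for 7 days on that food without the oil. All females had been mated for 48 h with isogenic males before the diets began, and most incubations were at 23 °C. Each sample was total RNA pooled from 25 to 50 whole heads, hybridised to an Affymetrix Drosophila Genome 2.0 array, so a value averages over animals and over all cells of the head. The submitters call the samples biological replicates.

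Cytochrome P450s are haem enzymes that add an oxygen atom to small molecules such as fatty acids, steroid hormones, plant toxins and insecticides. Most insect P450s sit in the endoplasmic reticulum and take electrons from the reductase Cpr, while those of the mitochondrial clan take them from a ferredoxin. The CYP3 and CYP4 clans, which hold most P450 genes of insects, include many enzymes of detoxification and of fatty acid and pheromone metabolism. The CYP2 and mitochondrial clans include enzymes that make or break down the moulting hormone ecdysone. In heads, P450s are known from the antenna, the fat body around the brain, glia and other cells.

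Signals are given as log2 of the deposited intensity, with values below 1 set to 1. A probe set was called above background where it passed the 95th percentile of 50 non-fly control probe sets of its array, which lay between 3.93 and 4.44 on the log2 scale. Between 65.3% and 70.0% of the probe sets passed it on each array. The 3′/5′ signal ratio of the actin control Act5C, a sign of RNA integrity, was 20.4 on high fat array 2 and between 10.5 and 13.2 on the other 5 arrays. In germ line genes all 3 normal diet arrays lay above the high fat arrays, arrays 1 and 3 by the most. The log2 of the summed intensity of 8 germ line genes was 7.53 to 7.90 on the high fat arrays. On normal diet arrays 1, 2 and 3 it was 13.41, 10.43 and 13.76. Such a sum is led by the brightest genes of a list. Markers of neurons, photoreceptors and antennae were detected on all 6 arrays, as the label of whole head implies.

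P450 transcripts were widely detected in heads. Of the 75 genes, 61 were above background on all 6 arrays, 10 on some arrays and 4 on none. That is 81.3% detected on every array, beside 69.5% of all named genes. By mean signal, 44 of the 75 lay in the upper 50% of named genes and 11 in the top 10%. The median over the P450 genes was 8.44, beside 7.78 over all named genes. Signals of different probe sets also depend on how well each probe binds, so the order given here is one of array signal and not of transcript numbers.

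**Figure D1:**
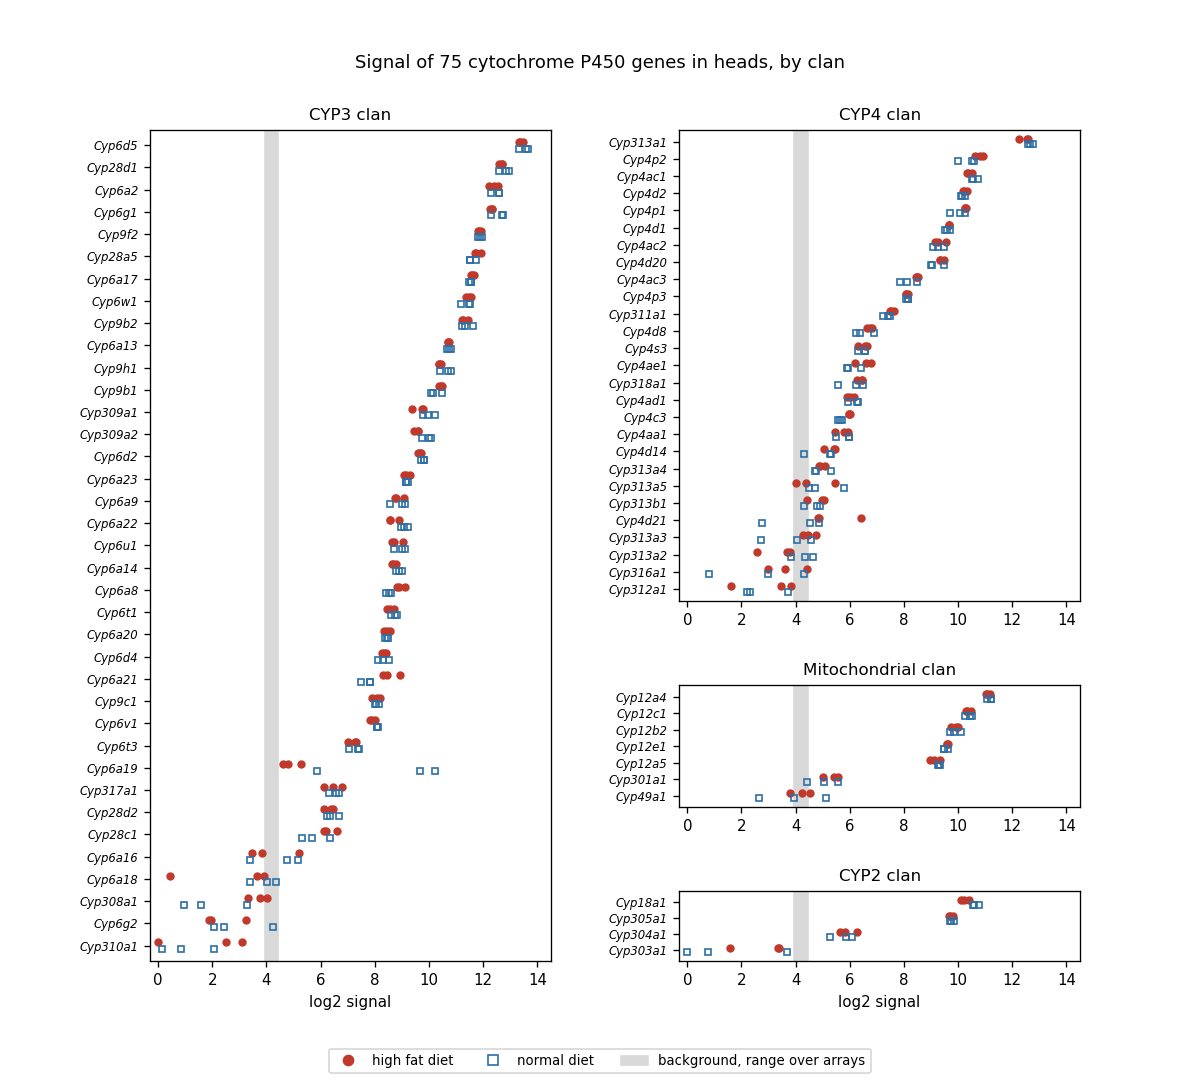
Log2 signal (x axis) of each of the 75 P450 genes (rows, by mean signal within a clan), with filled circles for the 3 high fat arrays and open squares for the 3 normal diet arrays; the grey band spans the background of the 6 arrays, 3.93 to 4.44. Cyp6d5 has the highest signal, and the circles and squares of most genes lie on each other, apart from Cyp6a19, whose normal diet arrays 1 and 3 reach 9.68 and 10.24.

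The CYP3 clan was the largest, with 37 genes, 32 of them detected on all arrays, 3 on some and 2 on none; its median signal was 8.87. The highest signal of all P450 genes was that of Cyp6d5, at 13.35, 13.48 and 13.33 on the high fat arrays and 13.31, 13.65 and 13.57 on the normal diet arrays. The arrays of both diets lay within 0.34 of each other. Cyp28d1 came next, at 12.68, 12.59 and 12.69 on the high fat arrays and 12.58, 12.86 and 12.95 on the normal diet arrays, and its diets overlapped. Cyp6a2, which is induced by the barbiturate phenobarbital and linked to DDT resistance, measured 12.41, 12.22 and 12.56 on the high fat diet and 12.30, 12.58 and 12.57 on the normal diet. Its change, high fat minus normal diet, was -0.09 (SE 0.16). Cyp6g1, known for its overexpression in strains resistant to DDT and imidacloprid, measured 12.26, 12.33 and 12.33 on the high fat diet and 12.28, 12.72 and 12.70 on the normal diet. The high fat arrays lay close together at the level of normal diet array 1, below normal diet arrays 2 and 3.

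The CYP4 clan held 27 genes, with 20 above background on all arrays, 6 on some and 1 on none, and a median signal of 6.30. Its highest gene was Cyp313a1, at 12.57 over the 6 arrays. The other 5 genes of the Cyp313 family had means of at most 4.94, near the background band, so 1 gene of that family of 6 stood far above its relatives. Next in the clan came Cyp4p2 at 10.57 and Cyp4ac1 at 10.50. Cyp4ac1 measured 10.38, 10.52 and 10.33 on the high fat arrays and 10.50, 10.73 and 10.55 on the normal diet arrays, which overlapped.

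The mitochondrial clan held 7 genes, 6 of them above background on all arrays, with a median of 9.57. The 5 Cyp12 genes led it, with means of 9.22 to 11.14. Cyp12a4, which confers resistance to the insecticide lufenuron when overexpressed, measured 11.04, 11.19 and 11.08 on the high fat diet and 11.07, 11.22 and 11.21 on the normal diet. Cyp12c1 averaged 10.36 ± 0.09 on the high fat diet and 10.41 ± 0.13 on the normal diet, and Cyp12b2 averaged 9.88 ± 0.13 and 9.89 ± 0.20 in the same order (SD, n = 3 each). None of the 3 differed by more than the spread between arrays. Cyp301a1, needed to form the adult cuticle, was much dimmer at 5.55, 5.41 and 5.02 on the high fat diet and 4.44, 5.55 and 5.04 on the normal diet.

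The CYP2 clan held 4 genes in these data. Cyp18a1, which inactivates ecdysteroids by 26-hydroxylation, led it with a mean of 10.44, followed by Cyp305a1 with 9.74. Cyp305a1 averaged 9.72 ± 0.07 on the high fat diet and 9.76 ± 0.08 on the normal diet (SD, n = 3 each). Cyp304a1 was dimmer, at 5.90 ± 0.32 on the high fat diet and 5.73 ± 0.41 on the normal diet (SD, n = 3 each). Cyp303a1, which acts in the development of external sensory organs, was not above background on any array.

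Families with several genes ranged widely within themselves, so no family stood wholly above another. By median signal, the 5 Cyp9 genes came first at 10.51, then the 5 Cyp12 genes at 9.89, Cyp309a1 and Cyp309a2 at 9.78, the 4 Cyp28 genes at 9.03, the 23 Cyp6 genes at 8.79, the 17 Cyp4 genes at 8.11 and the 6 Cyp313 genes at 4.77. Down the order of the 75 means, neighbours were mostly not separable. Of 74 neighbouring pairs, 4 had 6-array ranges that did not overlap: Cyp6d5 over Cyp28d1, Cyp6g1 over Cyp9f2, Cyp12a4 over Cyp6a13, and Cyp6v1 over Cyp311a1.

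The genes not above background on any array were Cyp303a1, Cyp308a1, Cyp310a1 and Cyp312a1. Of the 10 detected on some arrays, Cyp4d14, Cyp4d21, Cyp313a3 and Cyp313a5 passed on 5 arrays, Cyp6a16 on 3, Cyp49a1 and Cyp316a1 on 2, and Cyp6a18, Cyp6g2 and Cyp313a2 on 1. Cyp6g2, a close relative of Cyp6g1 that confers insecticide resistance when overexpressed, was at 1.87, 1.96 and 3.26 on the high fat arrays and 4.25, 2.08 and 2.45 on the normal diet arrays. Of these, 4.25 on normal diet array 1 was the value above background.

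The study set the high fat diet against the normal diet. With limma over all probe sets, 0 of the 75 P450 genes passed an adjusted p of 0.05 in either direction, and 0 of all 18769 probe sets did (0% higher and 0% lower). At an unadjusted p under 0.05 in limma there were 8 P450 genes of 75, 4 higher and 4 lower. Of all named genes 974 of 11982 passed, and of all probe sets 7.86%. Among the 61 P450 genes above background on all arrays there were 7, 3 of them higher. Beside these, 625 of 8326 named genes detected likewise passed. With limma's variance trend and robust moderation, 18 probe sets of the array passed as higher and 8 as lower, with 0 P450 genes among them. The smallest adjusted p of a P450 gene was 0.594, for Cyp6a21. An exact permutation test of a single gene cannot go below p = 0.10 with 3 samples against 3.

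The mean was higher on the high fat diet for 36 of the 75 genes and lower for 39, beside 44.5% higher among all named genes. The median change was -0.01 on the log2 scale over the P450 genes and -0.04 over all named genes. Changes were small for most. The median size of change was 0.18, beside 0.22 over all named genes. Among the 61 genes above background on all arrays, 3 had a change larger than 0.5, which is 4.92%, beside 8.98% of the 8326 named genes detected likewise. These were Cyp6a19, Cyp6a21 and Cyp28c1, and the diets of Cyp28c1 overlapped (0.53, SE 0.31, and 0.30 without normal diet replicate 3).

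**Figure D2:**
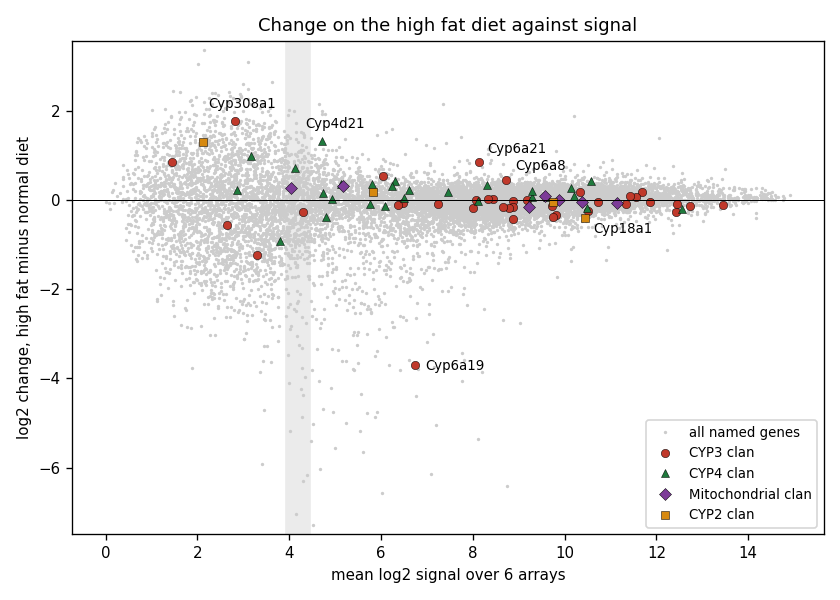
Log2 change, high fat minus normal diet (y axis), against the mean log2 signal over 6 arrays (x axis) for all named genes (grey points) and the 75 P450 genes by clan (coloured symbols); the grey band is the background, 3.93 to 4.44. Above the band most P450 genes lie near the zero line, Cyp6a21 sits at 0.86 and Cyp6a19 at -3.70, and below it the grey points also spread widely.

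Diets did not overlap for 13 of the 75 genes, that is, all 3 arrays of a diet lay beyond all 3 of the other. The high fat arrays were higher for 6 of them and lower for 7. Over all named genes, 9.55% were higher and 10.7% lower in this way. For the 61 genes above background on all arrays the counts were 5 and 6, beside 11.9% higher and 12.1% lower of the named genes detected likewise. In both directions together that was 17.3% of the 75 genes, beside 20.2% of all named genes. The share was near the background, and the difference between the 2 shares was not tested.

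Of the 5 detected genes that lay higher, Cyp6a21 had the largest difference. It measured 8.30, 8.94 and 8.47 on the high fat arrays and 7.81, 7.83 and 7.49 on the normal diet arrays, a change of 0.86 (SE 0.22, 1.81-fold, limma adjusted p = 0.594). The lowest high fat array lay 0.48 above the highest normal diet array. Cyp6a8, which hydroxylates lauric acid in vitro and is induced by phenobarbital and caffeine, measured 8.83, 8.91 and 9.13 on the high fat arrays and 8.43, 8.58 and 8.52 on the normal diet arrays. Its change was 0.44 (SE 0.13, 1.36-fold, limma adjusted p = 0.610), with a gap of 0.24 between the diets. Lauric acid is the main fatty acid of coconut oil, the fat source of the high fat food. A link between it and the level of Cyp6a8 was not tested.

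The other 3 higher genes were of the Cyp4 family. Cyp4c3 measured 5.99, 5.97 and 5.99 on the high fat arrays and 5.57, 5.70 and 5.63 on the normal diet arrays, a change of 0.35 (SE 0.10, limma adjusted p = 0.610). Its arrays lay close together, with SDs of 0.01 on the high fat diet and 0.06 on the normal diet. Cyp4p2 measured 10.92, 10.81 and 10.63 on the high fat arrays and 10.52, 10.58 and 9.98 on the normal diet arrays (change 0.43, SE 0.21, limma adjusted p = 0.612). Cyp4p1 measured 10.25, 10.27 and 10.26 on the high fat arrays and 10.07, 10.24 and 9.69 on the normal diet arrays, with a gap of 0.01. Normal diet array 3 was the lowest for both Cyp4p genes, and without it the changes were 0.23 for Cyp4p2 and 0.11 for Cyp4p1, against 0.26 for Cyp4p1 with all arrays. Antennal markers lay higher on the same arrays, with 4 of 5 higher in mean in high fat heads. The log2 of their summed intensity was 13.70 to 13.86 there and 13.22 to 13.65 on the normal diet. All 6 measured neuron markers were higher in mean on the high fat diet too (log2 of summed intensity 13.21 to 13.35, against 12.77 to 13.13). So were all 3 photoreceptor markers. Of the hemocyte markers, 4 of 4 were higher (log2 of summed intensity 11.05 to 11.20 on the high fat diet, 10.67 to 11.00 on the normal diet). Of the muscle markers, 2 of 3 were higher (11.71 to 11.82 on the high fat diet, 11.45 to 11.64 on the normal diet). Of 4 glia markers 3 were higher in mean, but their sums overlapped (13.99 to 14.04 on the high fat diet, 13.89 to 14.04 on the normal diet). None of the antennal, neuron or photoreceptor markers was at 0 on any array. The part of these cell types in the P450 differences was not tested. In RNA from whole heads, fewer cells of a type and less RNA per cell cannot be told apart.

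**Figure D3:**
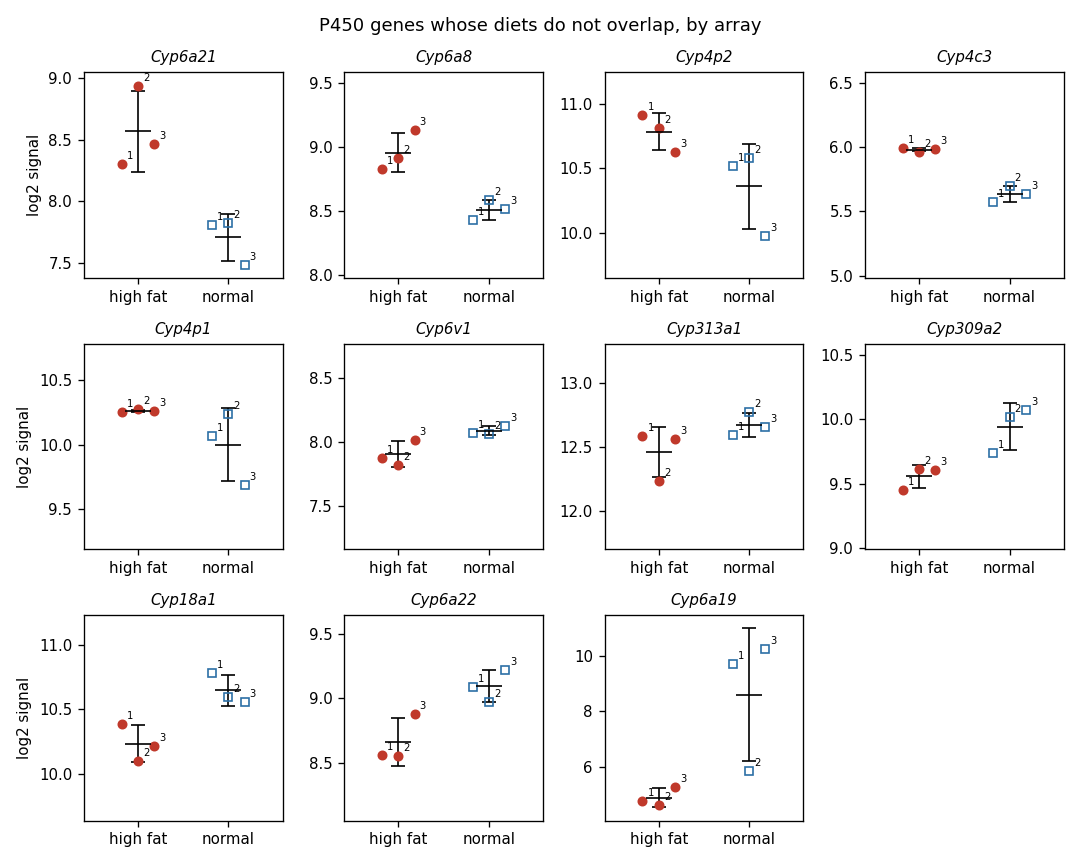
Log2 signal by array of the 11 P450 genes above background on all arrays whose diets do not overlap; filled circles are high fat arrays, open squares normal diet arrays, numbers are replicates, and bars give mean and SD (n = 3 each). Each axis spans 1.6 log2 units or more and starts at its own value, and the widest is that of Cyp6a19, whose normal diet arrays run from 5.85 to 10.24.

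Of the 6 detected genes that lay lower on the high fat diet, 5 had small differences. Cyp18a1, the ecdysteroid 26-hydroxylase, measured 10.39, 10.10 and 10.22 on the high fat arrays and 10.78, 10.60 and 10.56 on the normal diet arrays, a change of -0.41 (SE 0.14, limma adjusted p = 0.610). A dimmer probe set of the same gene did not separate the diets, at 9.47, 9.26 and 9.35 on the high fat arrays and 9.28, 9.48 and 9.47 on the normal diet arrays (change -0.05), so the difference of Cyp18a1 rests on 1 of its 2 probe sets. Cyp6a22 measured 8.56, 8.55 and 8.88 on the high fat arrays and 9.09, 8.98 and 9.22 on the normal diet arrays (change -0.43, SE 0.15, limma adjusted p = 0.610). Its highest high fat array was 0.10 below its lowest normal diet array.

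Of 7 fat body markers, 4 were lower in mean in high fat heads. Of these, Lsp2 (-0.41) and Mtp (-0.31) were lower without overlap, apolpp changed by -0.006, and Fbp1 was below background on every array. Yp1, Yp2 and Yp3 were higher in mean, with changes of 0.12, 0.12 and 0.17 and overlapping diets. The log2 of the summed intensity of the 7 was 16.64 to 16.75 on the high fat diet and 16.45 to 16.83 on the normal diet. The part of fat body content in the lower P450 genes was not tested.

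Cyp309a2 measured 9.45, 9.61 and 9.61 on the high fat arrays and 9.74, 10.02 and 10.07 on the normal diet arrays (change -0.39, SE 0.14, limma adjusted p = 0.610). The gene next to it, Cyp309a1, had a change of -0.35 with overlapping diets (-0.21 without high fat replicate 2 and -0.22 without normal diet replicate 2). Cyp313a1 measured 12.59, 12.23 and 12.56 on the high fat arrays and 12.59, 12.78 and 12.66 on the normal diet arrays, and Cyp6v1 measured 7.88, 7.82 and 8.02 on the high fat arrays and 8.07, 8.07 and 8.13 on the normal diet arrays. Their gaps between diets were 0.003 and 0.05. Without high fat replicate 2, the array with the Act5C ratio of 20.4, the change of Cyp313a1 was -0.10. With all arrays Cyp313a1 and Cyp6v1 had changes of -0.21 and -0.18, and both turned to 0.06 and 0.09 when each array was centred on its median. Over all probe sets, the median change was 0.23 after that centring and -0.03 before it. Under it Cyp18a1, Cyp6a22 and Cyp309a2 kept lower means but overlapped. The remaining 2 genes whose diets did not overlap were dim. Cyp308a1 was higher on the high fat diet but below background on every array, and Cyp313a2 was lower, passing background on 1 normal diet array (at least 1.04-fold).

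Cyp6a19 differed most, and it did so through 2 arrays. It measured 4.78, 4.62 and 5.27 on the high fat arrays, close to background, and 9.68, 5.85 and 10.24 on the normal diet arrays. Normal diet arrays 1 and 3 were the high ones, while normal diet array 2 lay 0.58 above the highest high fat array. The mean was 4.89 ± 0.34 on the high fat diet and 8.59 ± 2.39 on the normal diet (SD, n = 3 each), a change of -3.70 (SE 1.22, limma adjusted p = 0.610), with the normal diet 13.0-fold over the high fat diet. Without normal diet replicate 2 the change was -5.07 and passed the threshold (limma adjusted p = 0.0252), at which 16 probe sets were called higher and 151 lower over the whole array. Without normal diet replicates 1 and 3 it was -0.96.

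Genes of the female germ line were also highest on normal diet arrays 1 and 3. Their normal diet array 2 lay above all high fat arrays, as that of Cyp6a19 did. The oocyte gene osk measured 3.76, 4.02 and 4.29 on the high fat arrays and 10.70, 8.70 and 11.05 on the normal diet arrays. The cyclin gene CycB measured 5.77, 4.85 and 5.71 on the high fat arrays and 11.78, 8.43 and 12.17 on the normal diet arrays. The means of all 8 measured germ line markers were lower in high fat heads, with diets that did not overlap, and yl, nanos and bcd were below background on all 3 high fat arrays. The oenocyte gene Cyp4g1, a P450 of hydrocarbon synthesis, measured 7.24, 8.22 and 7.51 on the high fat arrays and 12.64, 7.59 and 11.01 on the normal diet arrays, so it was also high on normal diet arrays 1 and 3. All 3 oenocyte markers were lower in mean in high fat heads. The log2 of their summed intensity was 8.26 to 8.90 there and 8.56 to 12.70 on the normal diet. Of 4 gut markers 3 were lower in mean. The gut proteases Jon25Biii and alphaTry were highest on normal diet array 1. The part of germ line, oenocyte or gut RNA in the signal of Cyp6a19 was not tested. Of the 75 genes, 1 had both normal diet arrays 1 and 3 more than 2 log2 units above the other 4, which was Cyp6a19. Beside it were 126 of 11982 named genes, or 1.05%. Among genes above background on all arrays it was 1 of 61 P450 genes, or 1.64%, beside 40 of 8326 named genes, or 0.48%. The difference was not tested.

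**Figure D4:**
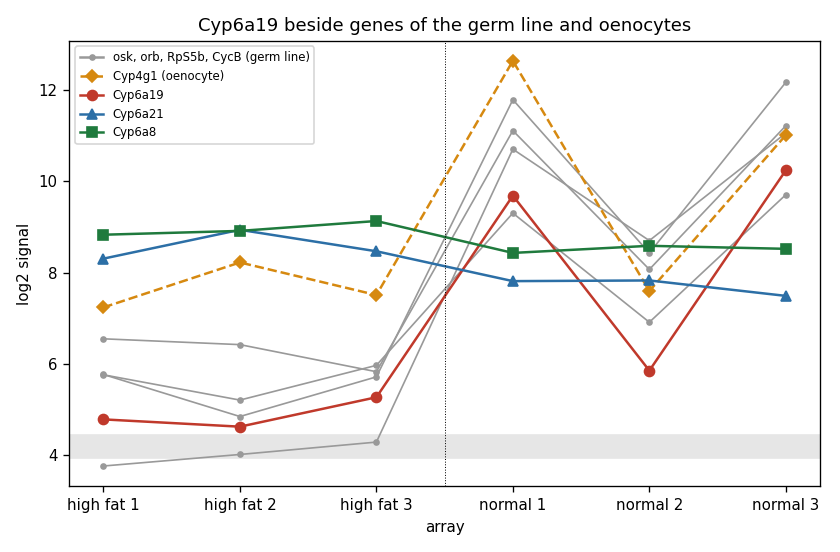
Log2 signal (y axis) on each of the 6 arrays (x axis) of Cyp6a19, Cyp6a21 and Cyp6a8, the oenocyte gene Cyp4g1 and 4 germ line genes in grey; lines only join the points of a gene and the grey band is the background. Cyp6a19, Cyp4g1 and the germ line genes are highest on normal diet arrays 1 and 3. Cyp6a21 stays between 7.49 and 8.94 and Cyp6a8 between 8.43 and 9.13.

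Of the 11 detected genes whose diets separated, 4 lie in a single stretch of 9 neighbouring P450 genes, all above background on all arrays. Over all named genes detected likewise, 24.0% separated in either direction, and the difference from this stretch was not tested. In the RefSeq annotation of the Release 6 assembly all 75 genes were placed, and 38 lay in 13 runs of 2 or more P450 genes with no other protein-coding gene between them. The longest run held 9 genes, in the order Cyp6a22, Cyp6a17, Cyp6a23, Cyp6a19, Cyp6a9, Cyp6a20, Cyp6a21, Cyp6a8 and Cyp317a1. These 4 are Cyp6a21 and Cyp6a8, which lay higher on the high fat diet, and Cyp6a19 and Cyp6a22, which lay lower. Along the run the changes were -0.43, 0.06, -0.01, -3.70, -0.02, 0.01, 0.86, 0.44 and -0.07, so the neighbours differed in sign and size. Cyp6a9, next to Cyp6a19, differed by -0.02 (SE 0.20), and its normal diet arrays 1 and 3, at 9.12 and 8.57, did not share the high values of Cyp6a19. Whether probes of such related genes bind each other's transcripts was not tested.

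**Figure D5:**
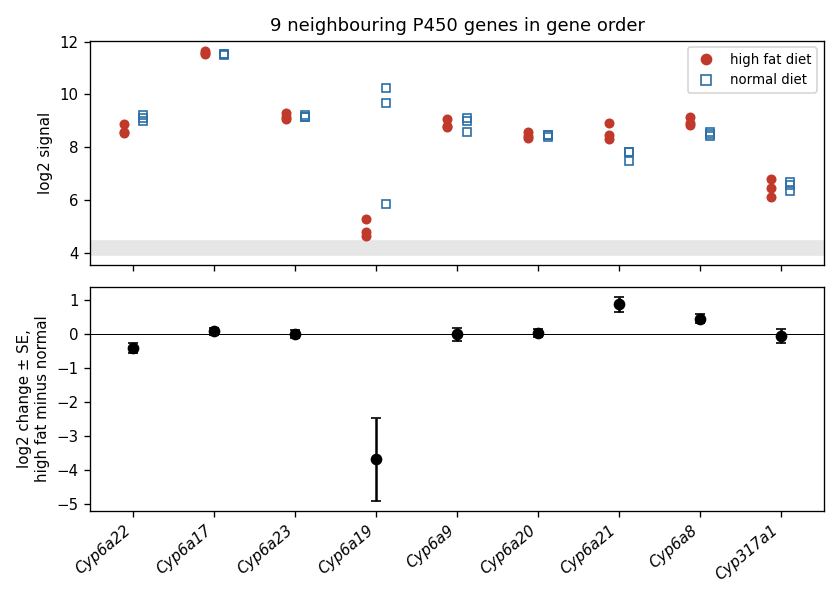
The 9 neighbouring P450 genes in gene order (x axis): above, log2 signal on each array, with filled circles for the high fat diet and open squares for the normal diet; below, the log2 change, high fat minus normal diet, with its SE. Cyp6a19 lies at -3.70, Cyp6a21 at 0.86 and Cyp6a8 at 0.44, while Cyp6a17, Cyp6a23, Cyp6a9 and Cyp6a20 lie on or near zero.

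Of the 13 runs, 3 held only genes with higher means in high fat heads, 5 only genes with lower means, and 5 both. In the run of Cyp4p2, Cyp4p1 and Cyp4p3 the changes were 0.43, 0.26 and -0.02. The genes of the runs Cyp4d14, Cyp4d2 and Cyp4ae1, Cyp311a1 and Cyp318a1, and Cyp316a1 and Cyp4d8 were higher in mean, each with overlapping diets. Those of the runs Cyp309a1 and Cyp309a2, Cyp28d2 and Cyp28d1, Cyp6a14 and Cyp6a13, Cyp6g1, Cyp6g2 and Cyp6t3, and Cyp12a5 and Cyp12a4 were lower in mean, and among them the diets of Cyp309a2 did not overlap.

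The CYP3 and CYP4 clans leaned opposite ways in their means, with few differences beyond the spread between arrays. In the CYP3 clan 11 genes were higher in mean in high fat heads and 26 were lower, with a median change of -0.09. In the CYP4 clan 20 were higher and 7 lower, with a median change of 0.17, and all 6 Cyp4d genes were among the higher ones. Scaling and single arrays moved these counts. Centring each array on its median shifts all genes alike, and after it 74.4% of all named genes were higher, against 44.5% before; 31 CYP3 genes were then higher and 6 lower, and 25 CYP4 genes were higher and 2 lower. Without normal diet replicate 2, 17 CYP3 genes were higher and 20 lower, while the CYP4 counts stayed at 20 and 7. Leaving out any 1 array gave 17 to 20 higher CYP4 genes of 27. Quantile normalization gave 23 higher CYP4 genes and 4 lower, but 17 higher CYP3 genes and 20 lower. After it 53.6% of all named genes were higher. With normal diet replicate 2 as the only normal diet array, 9 CYP3 genes were higher and 28 lower, and 13 CYP4 genes were higher and 14 lower. In the mitochondrial clan 3 genes were higher and 4 lower, and in the CYP2 clan 2 and 2.

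Several P450 genes with a known role in fly physiology gave close values on both diets. Cyp6a17, needed for temperature preference, measured 11.57, 11.65 and 11.54 on the high fat arrays and 11.48, 11.54 and 11.55 on the normal diet arrays. Cyp6a20, linked to aggression between males, measured 8.57, 8.44 and 8.34 on the high fat arrays and 8.46, 8.48 and 8.37 on the normal diet arrays. All 6 arrays lay within 0.17 of each other for Cyp6a17 and within 0.24 for Cyp6a20.

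Cyp6t3, which acts in ecdysteroid synthesis of the larval prothoracic gland, measured 7.31, 7.01 and 7.27 on the high fat arrays and 7.05, 7.40 and 7.40 on the normal diet arrays. Cyp311a1, needed for the microvilli of the larval midgut, measured 7.51, 7.64 and 7.50 on the high fat arrays and 7.40, 7.50 and 7.23 on the normal diet arrays (change 0.17, SE 0.13). The diets overlapped for both. Cyp4d21, also called sxe1, is known for higher expression in male heads and a link to courtship. In these female heads it measured 4.88, 4.84 and 6.40 on the high fat arrays and 2.76, 4.55 and 4.86 on the normal diet arrays, a change of 1.32 (SE 0.73, limma adjusted p = 0.626). High fat array 3 was the high one and normal diet array 1 the low one, below background. Without high fat replicate 3 the change was 0.81, and without normal diet replicate 1 it was 0.67.

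The arrays of the normal diet varied more. Over the 61 detected P450 genes the median SD between arrays was 0.11 on the high fat diet and 0.18 on the normal diet, and the normal diet had the larger SD for 41 genes. Over all named genes detected likewise the medians were 0.12 and 0.17 in the same order.

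Genes that supply P450s with electrons and haem were measured on the same arrays, and limma called 0 of them; at an unadjusted p under 0.05 there was 1 electron donor and 0 genes of haem synthesis. Of the electron donors, Fdx2, a mitochondrial ferredoxin, measured 9.28, 9.35 and 9.33 on the high fat arrays and 9.66, 9.52 and 9.71 on the normal diet arrays (change -0.31, SE 0.11, limma adjusted p = 0.610), so its high fat arrays all lay lower. Cyt-b5, which passes electrons to some P450s, measured 12.64, 12.74 and 12.66 on the high fat arrays and 12.29, 12.58 and 12.63 on the normal diet arrays, just without overlap. Fdx1 and Cyt-b5-r had changes of -0.01 and -0.04. Cpr and dare, the reductases of the microsomal and mitochondrial enzymes, were not analysed here. Of 7 measured genes of haem synthesis, 6 were lower and 1 higher in mean in high fat heads, with a median change of -0.13. Over all named genes 44.5% were higher in mean. Urod and Uros1 had diets that did not overlap, with changes of -0.13 and -0.20, while Coprox (-0.34) and Pbgs (-0.27) overlapped. Of named genes above background on all arrays, 12.1% were lower without overlap. These changes depended on scaling. With each array centred on its median, Urod and Uros1 were at 0.14 and 0.07. Coprox was then at -0.07, Pbgs at -0.005 and Fdx2 at -0.04.

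The P450s and partners of ecdysteroid synthesis that carry other names were mostly dim in heads. Of 8 such genes, shd, the enzyme that turns ecdysone into its active form, was above background on all arrays, with a change of 0.06. Of the other 7, 3 were on no array above background. In each of the lists of ecdysteroid genes and regulators 0 passed the threshold and 1 had an unadjusted p under 0.05. Of 11 regulators of P450 genes or of hormone response, 4 were higher and 7 lower in mean in high fat heads. The gene ss, the fly relative of the aryl hydrocarbon receptor, measured 6.46, 6.32 and 6.18 on the high fat arrays and 5.92, 5.80 and 5.52 on the normal diet arrays, a change of 0.57 (SE 0.16, limma adjusted p = 0.610) without overlap. Its partner tgo had a change of -0.03. The gene cnc, the fly relative of Nrf2, measured 12.82, 10.96 and 12.84 on the high fat arrays and 12.66, 12.82 and 12.82 on the normal diet arrays. Its low array was high fat array 2, the one with the Act5C ratio of 20.4, and the part of RNA integrity in that value was not tested.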

How the data were processed

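RNA from 6 samples was measured on Affymetrix Drosophila Genome 2.0 arrays. The signal intensities deposited by the authors are linear values made with Affymetrix Expression Console, per the submitters' processing notes; not given in the sources used here are its version and summarisation method. On every array the mean intensity was 500 after 2% was trimmed at each end, which is what global scaling to a common target gives, so a change is relative to the whole array. From the deposited table, 183 of 18952 probe sets were left out as controls; 13647 of the rest had 1 platform symbol, 402 several and 4720 none. Symbols were checked by Entrez identifier against RefSeq, with 13544 matches.

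Intensities below 1 were set to 1 (2010 values) and log2 was taken. limma 3.58.1 in R 4.3.3 fitted high fat minus normal diet over all 18769 probe sets, with Benjamini-Hochberg adjustment and a threshold of 0.05. The fit was tested on simulated data. Named were detected P450 genes past the threshold, those whose diets did not overlap, the 3 brightest per clan and those with a listed role; from each list of other genes, those with the smallest p. A few others were named after their values were seen. The members, clans, roles, lists, naming rule and background cut were chosen with earlier results of these data known.

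Alternatives were quantile normalization, median centring, a floor of 16, a pseudocount of 16, trend and robust moderation, probe sets above background on fewer than 3 arrays left out, the mean over a gene's probe sets, the replicate number as a block, each array left out, and normal diet replicates 1 and 3 left out. Same-numbered samples did not deviate together (correlations of -0.07, 0.00018 and 0.03 over probe sets), and nothing in the labels pairs them. The number of arrays limits the precision.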

Additional observations from a re-analysis of the deposited data

Results flagged for a closer look

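Probe sets that carry P450 names but fall outside the naming rule also gave signal above background on all 6 arrays. The probe set shared by shn and Cyp6v1 had a mean log2 signal of 13.91 and the share of each gene in it cannot be read from the array; its change was -0.15. The probe set shared by Cyp12d1-d and Cyp12d1-p, near-identical copies of a mitochondrial P450, had a mean of 8.74, with 8.59, 8.21 and 8.82 on the high fat arrays and 8.58, 9.19 and 9.07 on the normal diet arrays (change -0.40). A probe set of Cyp12d1-d had a mean of 5.28 and a change of -0.44. The diets overlapped for all 3.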

How the results depend on the processing

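No P450 gene passed the threshold as higher in any of the 15 alternatives, and 1 (Cyp6a19) passed as lower, without normal diet replicate 2, so that leaving out an array in turn gave 0 to 1 lower. Leaving out each array in turn gave 8 to 18 genes higher without overlap and 7 to 21 lower, against 6 and 7 with all arrays. With 2 arrays in a group fewer values need to separate. The shares of named genes were then 12.4% to 15.4% higher and 13.6% to 24.3% lower. Counts and shares did not move together. The 21 lower of 75 came without normal diet replicate 1, where 16.7% of named genes were lower. Without normal diet replicate 2, 18 were higher and 7 lower, beside 15.4% and 24.3% of named genes. These differences were not tested. The median change with an array left out ran from -0.03 to 0.03. Median centring gave 15 higher and 1 lower without overlap, with 22.2% and 2.95% of named genes, and a median change of 0.26, with 66 genes higher and 9 lower in mean (74.4% of all named genes higher); the changes of Cyp313a1 (0.055) and Cyp6v1 (0.088) reversed. Quantile normalization gave a median change of 0.12, with 47 higher and 28 lower (53.6% of all named genes higher), and Cyp6a22 was then at -0.34. Without normal diet replicates 1 and 3, 12 genes were higher and 36 lower without overlap (25.9% and 26.9% of named genes), with a median change of -0.10; the single normal diet array was then assumed to vary like the others. With the replicate number as a block, 0 genes passed in either direction and no other call changed; the pairing has no basis in the labels. Of 165 values for the 11 genes in 15 alternatives, 162 kept direction and side of the threshold. Much of that count was fixed in advance, because the 11 genes were picked for diets that do not overlap. Leaving out arrays cannot reverse the direction of such a gene, and none of them passed the threshold with all arrays. With 3 arrays a group, signals below background give no measured change.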
